A study of Homo sapiens with 16 samples.

Results

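Matrix metalloproteinases, the TIMP inhibitors and TFPI2 were followed in A375 melanoma tumors under BET and BRAF inhibition. The 10 genes are MMP1, MMP2, MMP14, MMP15, MMP16, MMP17, TIMP1, TIMP2, TIMP3 and TFPI2, and they were chosen by symbol from the 23260 gene symbols of the expression table. A375 is a human melanoma cell line with mutant BRAF. Tumors were raised on the left and right flanks of NOG mice, a strain that has few lymphoid cells but supplies mouse stroma and vessels. The control group received a vehicle of DMSO and cyclodextrin, the J group JQ1, which blocks BET proteins, at 50 mg/kg daily, and the V group Vemurafenib, an inhibitor of BRAF, in doses of 25 mg/kg. The J+V group received both drugs, and all injections were intraperitoneal. RNA was sequenced from tumors taken on day 5. Each of the 4 groups held 4 tumors from 2 mice, so the 16 tumors came from 8 mice. All groups carried the same cell line, and tumors are named by mouse number and flank (L or R).

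Matrix metalloproteinases are zinc proteases that cut collagen and other proteins of the extracellular matrix. Some are secreted, as MMP1 and MMP2 are, and others are anchored in the cell membrane, as MMP14 and MMP16 are. The TIMPs can bind to the active sites of members of the family and block them. In melanoma the family is known for its part in invasion of the dermis, and the transcription of MMP1 is known to respond to the AP-1 factors that the MAPK pathway drives.

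Levels are given in FPKM, fragments per kilobase of transcript scaled to the mapped fragments of a tumor, so genes can be compared per length. Small RNAs took 43.6% to 61.7% of the summed FPKM of a tumor. Sequencing depth is unknown, and counting error is not given. Of the melanoma markers S100A1, S100B, SOX10, MITF and MLANA were measured, while PMEL and TYR were at most 0.305 FPKM and DCT was listed at 0 in every tumor. The 8 melanoma markers summed to 78.2 to 130.1 FPKM in control and 114.8 to 203.9 FPKM in J+V tumors. Of the 5 melanoma markers tested, S100B (log2 fold change 1.68, adjusted p = 4.84e-05) and MLANA (0.55, adjusted p = 0.0143) were called higher in J+V than in control tumors by limma. None was called lower, where 16.6% of all genes tested were called higher and 20.5% lower. The part of these markers in the results was not tested. Markers of endothelial cells summed to at most 1.97 FPKM. All 9 fibroblast markers were measured, and their summed level was 50.7 to 146.8 FPKM in control tumors and 85.8 to 140.1 FPKM in J+V tumors. The injected cells were A375 alone and the build was hg19, so fibroblasts in these tumors would be mouse cells. It is unknown if mouse reads were filtered out. Levels of the fibroblast markers, and of MMP2, TIMP2 and TIMP3, may include mouse reads or come from A375 cells, which was not tested. The same holds for the other genes followed here, among them MMP14 and TIMP1. In these bulk samples, fewer cells of a type and less RNA per cell cannot be told apart.

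The combination group differed from control in 5 of the 8 genes that were measured well enough to test. MMP1, MMP14 and TFPI2 fell, and MMP16 and TIMP1 rose. The test was limma on log2(FPKM + 0.5) over the 13426 genes whose FPKM reached 1 in 4 or more tumors. A gene was called at a Benjamini-Hochberg adjusted p below 0.05. By this rule, 20.5% of all genes tested were called lower and 16.6% higher in J+V than in control tumors, so 3 of 8 lower and 2 of 8 higher have to be read against a broad change. The median log2 fold change of the 8 genes was -0.27, beside -0.03 over all genes tested. These 5 calls were made under each of 38 other settings of the fit. With the FPKM of each tumor set to a common sum, the median of all genes moved from -0.03 to -0.22, and the changes below are relative to a median near 0. MMP15 and MMP17 were below the level for testing. The share of all genes whose J+V tumors lay apart from every other tumor was not recorded, so the gaps described below have none beside them.

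MMP1 is interstitial collagenase, the enzyme that makes the first cut in fibrillar collagen. The gene lies on chromosome 11 at 102660132 to 102668891 on the minus strand of GRCh37, the assembly behind hg19. It stood at 25.8, 18.4, 45.8 and 77.2 FPKM in control tumors 2L, 2R, 5L and 5R. In J+V tumors 33L, 33R, 34L and 34R it stood at 4.00, 2.93, 6.01 and 13.4 FPKM. Every J+V tumor was below every control tumor, and control mouse 5 was higher than control mouse 2. J tumors held 24.3, 22.1, 37.6 and 37.1 FPKM and V tumors 25.2, 25.1, 20.1 and 20.2 FPKM. None of these 8 tumors was as low as the highest J+V tumor. J+V tumors had a log2 fold change of -2.58 against control (standard error 0.419, adjusted p = 0.00042 from limma), a level 0.167 times that of control. The size depended on the mice, at -1.87 without mouse 5 and -3.29 without mouse 2.

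MMP14, a collagenase of the cell membrane that also activates the proenzyme of MMP2, lies on chromosome 14 at 23305769 to 23318250 on the plus strand. Control tumors held 25.9, 28.8, 25.5 and 45.2 FPKM, and J+V tumors 19.7, 20.4, 18.7 and 19.8 FPKM. The J+V tumors were the most even of the groups, with an SD of 0.687 FPKM, and did not overlap with any other group. The levels were 25.1, 31.6, 29.5 and 30.7 FPKM in J tumors and 29.6, 26.6, 33.5 and 32.7 FPKM in V tumors. MMP14 fell by 0.62 on the log2 scale against control (standard error 0.14, adjusted p = 0.00338 from limma), and by 0.44 without control tumor 5R (adjusted p = 0.00224).

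MMP16, another membrane-bound member, had the highest mean level of the 6 metalloproteinases in each group. It lies on chromosome 8 at 89044239 to 89340254 on the minus strand. Control tumors held 63.3, 42.6, 56.2 and 49.9 FPKM. In J+V tumors the levels were 94.5, 101.3, 105.8 and 92.5 FPKM. The lowest J+V tumor was above the highest of the other 12 tumors, V tumor 19L at 75.4 FPKM. J tumors ranged from 56.0 to 66.0 FPKM and V tumors from 46.3 to 75.4 FPKM. MMP16 rose 1.87-fold in J+V against control (log2 fold change 0.90, standard error 0.13, adjusted p = 0.000191 from limma).

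TFPI2, a Kunitz-type inhibitor of plasmin and related serine proteases that lies in the matrix, is on chromosome 7 at 93514708 to 93520065 on the minus strand. Control tumors held 53.6, 40.1, 71.5 and 60.2 FPKM. J+V tumors held 20.4, 21.6, 28.7 and 34.5 FPKM. The J+V tumors were below every other tumor, of which V tumor 19L was the lowest at 39.7 FPKM. Levels were 51.5 to 64.9 FPKM in J tumors and 39.7 to 75.1 FPKM in V tumors, around the control mean of 56.3 ± 13.1 (SD, n = 4). The fold against control was 0.471 (log2 fold change -1.09, standard error 0.212, adjusted p = 0.00137 from limma). GNGT1, which overlaps TFPI2 on the opposite strand, stood at 0.817 to 3.29 FPKM, and it was not stated whether counting used strand.

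TIMP1, an inhibitor of most secreted metalloproteinases, was the most abundant of the 10 genes. It lies on chromosome X at 47441807 to 47446188 on the plus strand, opposite to SYN1, which was at most 0.275 FPKM. Control tumors held 156, 126, 125 and 178 FPKM, and J+V tumors 252, 305, 178 and 286 FPKM. J+V tumor 34L was the lowest of the J+V tumors and reached no higher than control tumor 5R. J tumors, at 236, 152, 186 and 217 FPKM, and V tumors, at 156, 213, 152 and 176 FPKM, lay between the groups and overlapped with both. TIMP1 rose 1.72-fold in J+V against control (log2 fold change 0.79, standard error 0.172, adjusted p = 0.00284 from limma).

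**Figure D1:**
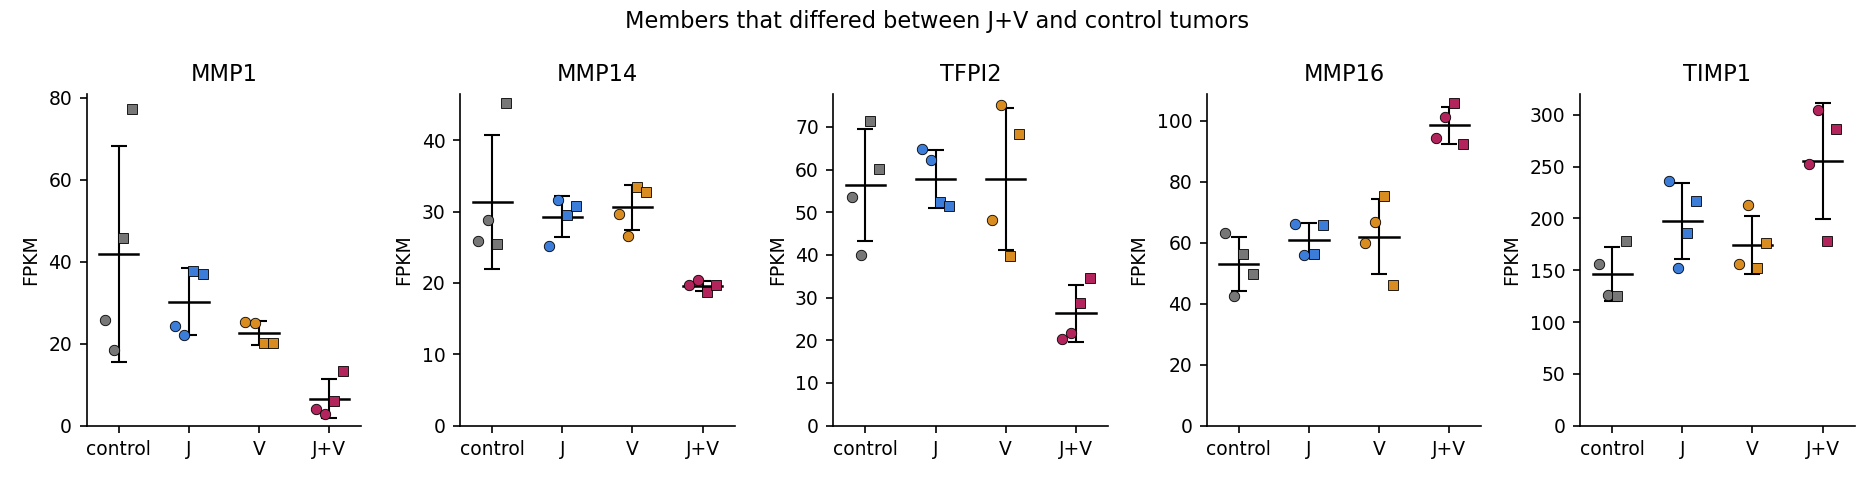
Each point is the FPKM of 1 tumor, the 2 mice of a group have circles or squares, and lines and bars are the mean and SD of 4 tumors. The J+V tumors stood below all others for MMP1 (at most 13.4 FPKM), MMP14 (at most 20.4 FPKM) and TFPI2 (at most 34.5 FPKM) and above all others for MMP16 (at least 92.5 FPKM), while TIMP1 overlapped at tumor 34L. The share of all genes that separate in this way was not recorded.

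The stretch before the transcription start is shown for the 3 genes of these 5 with an entry in the RefSeq promoter table (GRCh38.p14), which held 5 of the 10 genes. Each sequence is the 250 bases before the start, 5′ to 3′ on the gene's strand, and lies at chr7:93890754-93891003 (minus strand) for TFPI2, chrX:47582186-47582435 (plus strand) for TIMP1 and chr14:22836335-22836584 (plus strand) for MMP14. They are shown because AP-1 factors are among the genes described below. Capitals mark matches to TGANTCA, a loose form of the AP-1 element in which N is any base, or to the related letters TGAGTAA, searched on both strands.
TFPI2: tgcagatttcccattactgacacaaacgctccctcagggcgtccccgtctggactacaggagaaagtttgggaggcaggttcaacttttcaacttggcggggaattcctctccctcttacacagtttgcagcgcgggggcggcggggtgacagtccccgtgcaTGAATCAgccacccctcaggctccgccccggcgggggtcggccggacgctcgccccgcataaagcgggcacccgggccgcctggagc
TIMP1: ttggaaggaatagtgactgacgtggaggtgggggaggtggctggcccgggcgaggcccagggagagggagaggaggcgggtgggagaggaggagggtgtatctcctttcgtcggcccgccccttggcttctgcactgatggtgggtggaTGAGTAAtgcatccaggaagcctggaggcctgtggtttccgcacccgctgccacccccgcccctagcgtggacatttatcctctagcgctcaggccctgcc
MMP14: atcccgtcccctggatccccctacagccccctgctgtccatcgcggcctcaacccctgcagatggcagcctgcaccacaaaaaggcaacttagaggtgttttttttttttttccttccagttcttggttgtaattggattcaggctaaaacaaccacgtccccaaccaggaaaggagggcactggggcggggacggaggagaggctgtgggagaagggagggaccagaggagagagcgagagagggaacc

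TFPI2, which fell, held TGAATCA from position -87 relative to the start, a match to the loose form with A at N. TIMP1, which rose, held TGAGTAA from position -101. MMP14, which fell, held no match to either in this window. Over 35116 promoter stretches of the same length, 6.57% held TGANTCA with any base at N and 2.21% held TGAGTAA. Each of the 3 held the GC box GGGCGG on one strand or the other, as did 42.6% of all stretches, and none held TATAAA, which 10.7% did. The matches did not overlap each other. A match is a description of the letters and not a measured site of binding.

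MMP2, TIMP2 and TIMP3 did not pass the test in J+V against control. MMP2 is a gelatinase that cuts denatured collagen and type IV collagen, on chromosome 16 at 55423612 to 55540603 (plus strand). It stood at 21.1, 33.6, 21.4 and 37.5 FPKM in control tumors and at 14.9, 16.1, 35.9 and 17.7 FPKM in J+V tumors. All J+V tumors but 34L were below every control tumor. The log2 difference was -0.46, with a 95% interval of -1.02 to 0.10 (adjusted p = 0.181 from limma), and without tumor 34L it was -0.75 (adjusted p = 0.0155).

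TIMP2, an inhibitor that also takes part in the activation of MMP2 on the cell surface, lies on chromosome 17 at 76849059 to 76921469 (minus strand). Control tumors held 16.8, 21.1, 17.7 and 29.0 FPKM and J+V tumors 17.5, 18.7, 27.9 and 16.2 FPKM, so the groups overlapped along most of their range. The log2 difference was -0.07 (95% interval -0.45 to 0.30, adjusted p = 0.765 from limma). TIMP3, an inhibitor held in the matrix that also acts on ADAM proteases, lies on chromosome 22 at 33197691 to 33259028 (plus strand), opposite to SYN3, which was at most 0.526 FPKM. Its levels were 57.8, 55.9, 61.7 and 99.8 FPKM in control tumors and 49.99, 51.4, 130.0 and 65.7 FPKM in J+V tumors. The log2 difference was 0.03 (95% interval -0.54 to 0.61, adjusted p = 0.93 from limma), and it was -0.18 with a common sum per tumor.

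In the control and J+V groups the same 2 tumors were the highest for these 3 genes. Control tumor 5R and J+V tumor 34L had summed fibroblast markers of 146.8 and 140.1 FPKM. The other control tumors had 50.7 to 58.0 and the other J+V tumors 85.8 to 100.7 FPKM. Tumor 5R was also the highest control tumor for MMP1, MMP14 and TIMP1. In V the tumor with the highest markers, 19L (134.8 FPKM), was highest for MMP2 but not for TIMP2 or TIMP3. In J it was 29L (97.6 FPKM), the lowest J tumor for TIMP3 and not the highest for MMP2 or TIMP2. Of the 9 fibroblast markers LUM, DCN, PDGFRB and ACTA2 were called higher in J+V than in control tumors and none lower. Of all genes tested, 16.6% were called higher and 20.5% lower. The markers and MMP2, TIMP2 and TIMP3 may all include mouse reads, so the markers are no measure of human fibroblasts. The part of the fibroblast markers in the levels of MMP2, TIMP2 and TIMP3 was not tested. Without tumors 5R and 34L, a setting chosen after seeing the data, the 5 calls of J+V against control remained and MMP2 was added (log2 difference -0.61, adjusted p = 0.0433).

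**Figure D2:**
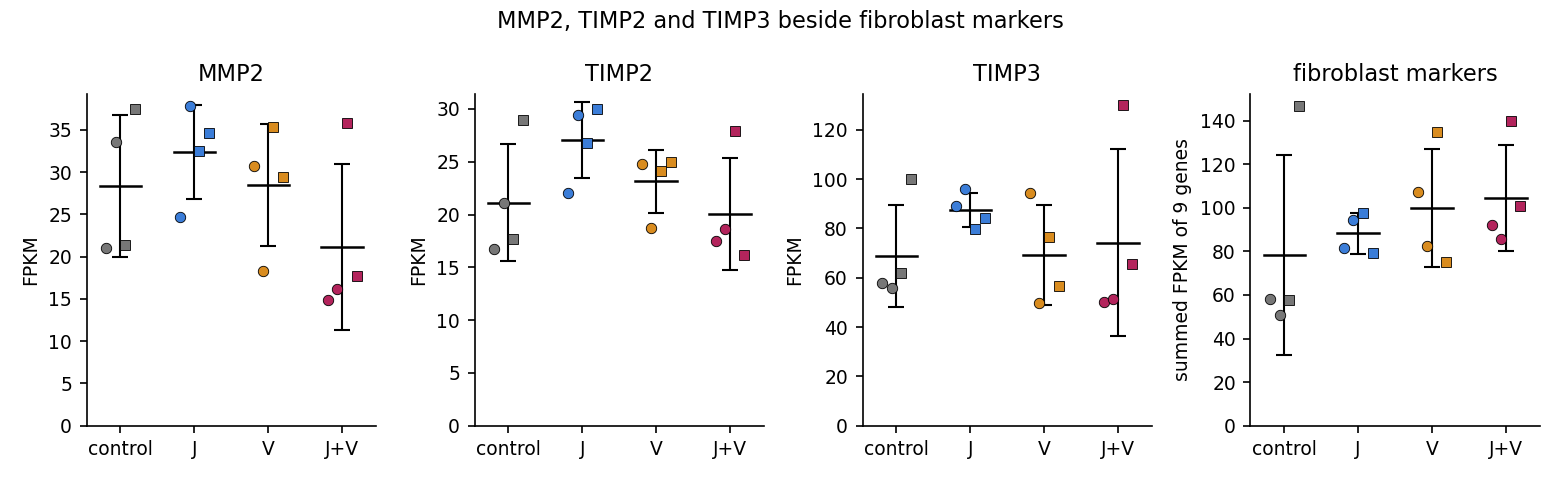
The first 3 panels give the FPKM of each tumor and the last the summed FPKM of 9 fibroblast markers, where the 2 mice of a group have circles or squares and lines and bars give the mean and SD of 4 tumors. The highest control tumor (5R, 146.8 FPKM of markers) and the highest J+V tumor (34L, 140.1 FPKM) were also the highest of their groups for MMP2, TIMP2 and TIMP3. This was not so for any of these genes in J, nor for TIMP2 and TIMP3 in V. Mouse reads may be included in every panel, which was not tested.

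MMP15 and MMP17, both membrane-bound, were near the lower end of the scale. MMP15, on chromosome 16 at 58059658 to 58080805 (plus strand), stood at 0.275 to 0.420 FPKM in control, 0.264 to 0.685 in J, 0.267 to 0.617 in V and 0.136 to 0.340 in J+V tumors. MMP17, on chromosome 12 at 132312938 to 132336328 (plus strand), was at most 0.103 FPKM and was listed at 0 in at least 1 tumor of every group.

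JQ1 alone or Vemurafenib alone gave no called change in the 8 genes. Over all genes tested, limma called 0.0% in J against control and 0.0% in V against control, while 1140 and 2160 genes had an unadjusted p below 0.05. Of the 8 genes, 1 (TIMP1) reached that level in J and 0 in V. TIMP1 was 1.35 times the control level in J tumors (95% interval of the log2 difference 0.06 to 0.80, adjusted p = 0.506) and 1.19 times in V tumors (-0.11 to 0.62, adjusted p = 0.495). For MMP1 the intervals were wide, at -1.18 to 0.61 in J and -1.56 to 0.23 in V, so that a fall smaller than the one in J+V lay inside both. For TFPI2 they were -0.39 to 0.51 in J and -0.43 to 0.47 in V, and for MMP14 -0.36 to 0.24 and -0.30 to 0.30. These intervals end short of the J+V values of -1.09 and -0.62. MMP16 had log2 differences of 0.21 in J (adjusted p = 0.717) and 0.22 in V (adjusted p = 0.438). The single drug comparisons and the J+V comparison share the control tumors. Between J and V tumors 0 of the 8 genes were called and 0 had an unadjusted p below 0.05, beside 0.283% of all genes called.

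Adding Vemurafenib to JQ1 changed 4 of the 8 genes. MMP1 (log2 fold change -2.29, adjusted p = 0.00162), TFPI2 (-1.15, adjusted p = 0.0017) and MMP14 (-0.56, adjusted p = 0.00952) were lower in J+V than in J tumors, and MMP16 was higher (0.69, adjusted p = 0.002). Of all genes tested, 18.4% were called lower and 8.67% higher in this comparison. MMP2 (-0.68, adjusted p = 0.0681) and TIMP2 (-0.45, adjusted p = 0.0708) missed the threshold but passed it without tumor 34L, at adjusted p = 0.00547 and 0.0112. TIMP2 passed it also without control tumor 2L (0.0441), control tumor 5R (0.0388) or J tumor 26L (0.0485). Without tumor 34L, TIMP3 passed as well (-0.66, adjusted p = 0.028), as did TIMP1 (0.52, adjusted p = 0.022), so that all 8 genes were called. The share of all genes called without this tumor was not recorded, so this count has nothing to be read against. MMP14 was not called without mouse 29 (adjusted p = 0.0983).

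Adding JQ1 to Vemurafenib also changed 4 of the 8 genes, in a comparison that shares the J+V tumors with the one before. The log2 fold changes of J+V against V were -1.91 for MMP1 (adjusted p = 0.00965), -1.11 for TFPI2 (adjusted p = 0.00502), -0.62 for MMP14 (adjusted p = 0.0111) and 0.68 for MMP16 (adjusted p = 0.00502). Of all genes tested, 8.31% were called lower and 4.99% higher. TIMP1 was just outside the threshold (0.53, adjusted p = 0.0539) and was called under 12 of 38 other settings, among them those without V tumor 16R (0.0401), control tumor 2L (0.0402), 2R (0.0378) or 5R (0.0453) or J+V tumor 34L (0.00893). These calls rested on few mice: with the tumors of a mouse averaged, MMP16 alone was called, and without mouse 33 MMP1 (adjusted p = 0.145), MMP14 (0.0702) and TFPI2 (0.0818) were not.

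**Figure D3:**
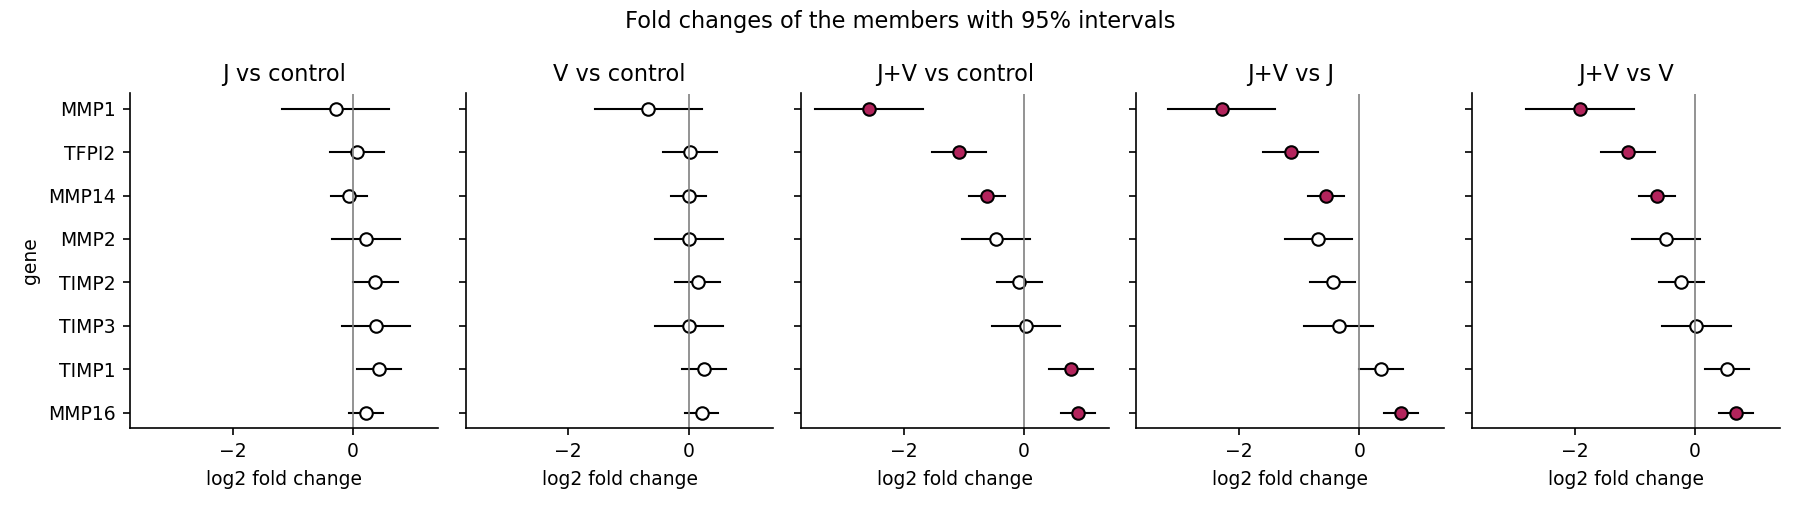
Points are log2 fold changes of the 8 tested genes from limma on log2(FPKM + 0.5), bars are 95% intervals, and filled points have an adjusted p below 0.05. MMP1, TFPI2, MMP14 and MMP16 were called in each of the J+V comparisons, with MMP1 at -2.58 against control, and no gene was called for J or V alone.

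The departure of J+V from additivity, that is from J plus V on the log2 scale, was called for 0 of the 8 genes. The same held for 0.0% of all genes, although 5 of the 8 and 1693 of all genes had an unadjusted p below 0.05 in limma. The 5 were MMP1, MMP14, MMP16, TFPI2 and TIMP2. TFPI2 departed by -1.17 (standard error 0.299, adjusted p = 0.146), its single drug values being 0.06 in J and 0.02 in V. MMP1 departed by -1.62 (adjusted p = 0.272) and MMP14 by -0.56 (adjusted p = 0.257). MMP16 departed by 0.47 (adjusted p = 0.312) and TIMP2 by -0.60 (adjusted p = 0.33). TIMP1, not among the 5, departed by 0.10 (adjusted p = 0.894). MMP14 passed the threshold without control tumor 5R (adjusted p = 0.0474), and MMP1 and TFPI2 without mouse 34 (adjusted p = 0.0455 and 0.0241).

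By the thresholds of the study (more than 2-fold, with p under 0.01 and an FDR under 0.1), applied to the limma values, MMP1 and TFPI2 were called in J+V against control, where 2.38% of all genes were called lower. The changes of MMP14, MMP16 and TIMP1 were smaller than 2-fold.

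The make-up of metalloproteinase RNA shifted while its total stayed in the same range. The FPKM of all 23 MMP genes of the table summed to 129.7 to 226.9 in control tumors and 140.3 to 175.4 in J+V tumors. MMP16 made up 22.0% to 44.01% of that sum in control, 33.4% to 43.1% in J, 33.3% to 45.2% in V and 60.3% to 68.3% in J+V tumors. MMP1 made up 14.2% to 34.0% in control and 1.98% to 8.77% in J+V tumors. The ratio of TIMP1 to MMP1 FPKM was 2.31 to 6.85 in control and 21.4 to 103.8 in J+V tumors, and the ratio of TIMP1 to MMP14 was 3.94 to 6.04 and 9.53 to 15.0. Neither pair of ranges overlapped, and no test was made of the sums, shares and ratios. Both ratios set a gene called higher over a gene called lower in these same tumors, so they add no separate result. MMP16, the largest part of the sum in J+V tumors, rose as TIMP1 did, and the ratio of TIMP1 to MMP16 was not recorded. The ratios compare RNA levels, and inhibition of the enzymes was not measured.

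Of the rest of the MMP and TIMP families, 4 of 18 genes could be tested. In J+V against control 1 of the 4 fell and 1 rose, which is near the shares of all genes called, 20.5% lower and 16.6% higher. MMP10, a stromelysin that lies in the same gene cluster as MMP1, fell (log2 fold change -1.11, adjusted p = 0.00485), from 0.719 to 1.71 FPKM in control tumors to 0.228 to 0.479 FPKM in J+V tumors. MMP19 rose by 0.97 on the log2 scale (adjusted p = 0.000185), from 0.930 to 1.59 FPKM to 2.24 to 3.56 FPKM. Both are low, and the fold on this scale is understated.

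Plasminogen activation supplies plasmin, a serine protease that activates several MMP proenzymes and that TFPI2 inhibits. Of 5 tested genes of this list, 3 fell and 1 rose in J+V against control, where 20.5% and 16.6% of all genes did. The 5 genes had a median log2 fold change of -0.51. Without control tumor 5L, J+V tumor 33L or J+V tumor 33R, 2 of them were called. PLAUR, the receptor of the urokinase activator, stood at 18.4, 23.2, 23.4 and 23.8 FPKM in control tumors and 4.64, 3.78, 7.80 and 8.65 FPKM in J+V tumors. Its log2 fold change was -1.82 (adjusted p = 3.2e-05), and it was also lower in J+V than in J (-1.67, adjusted p = 0.00014) and V tumors (-1.32, adjusted p = 0.00131). PLAUR stood at 16.8 to 22.4 FPKM in J tumors and at 14.0 to 18.3 FPKM in V tumors, the latter below every control tumor though not called. SERPINE2, an inhibitor of serine proteases, rose by 1.08 (adjusted p = 0.000501), from 428 to 894 FPKM in control tumors to 1268 to 1323 FPKM in J+V tumors. S100A10, a plasminogen binding protein, fell by 0.54 (adjusted p = 0.0387), a call lost under 18 of 38 other settings (adjusted p up to 0.387), among them those without any 1 control tumor or without J+V tumor 33L, 33R or 34R. ANXA2, which forms a plasminogen-binding complex with S100A10, fell by 0.51 (adjusted p = 0.0195), but was not called without control tumor 5L (0.112), J+V tumor 33L (0.0631) or J+V tumor 33R (0.0575). PLAU, urokinase itself, was below the level for testing, at 0.172 to 0.745 FPKM in control and 0.0287 to 0.183 FPKM in J+V tumors.

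Among 9 other inhibitors and regulators, 2 rose and 1 fell, with a median log2 fold change of 0.00. These counts are near the shares of all genes called, 16.6% higher and 20.5% lower. A2M, a broad trap for proteases, stood at 6.42, 5.61, 7.24 and 15.2 FPKM in control tumors and 40.6, 49.95, 52.0 and 43.5 FPKM in J+V tumors (log2 fold change 2.47, adjusted p = 2.81e-05). It was higher in J+V than in J (1.11, adjusted p = 0.00617) and V tumors (1.66, adjusted p = 0.00147) too. J tumors held 16.6 to 26.3 FPKM of A2M, above every control tumor, and V tumors 11.0 to 20.7 FPKM, with no call for either drug alone. RECK, a membrane-anchored inhibitor of metalloproteinases, rose by 0.33 (adjusted p = 0.018), and the call was lost under 7 of 37 other settings. These were a common sum per tumor (0.16, adjusted p = 0.34), quantile normalization (adjusted p = 0.0726), averaging the tumors of a mouse (0.0977), a fit of control and J+V tumors alone (0.0819), and leaving out control mouse 2 (0.136) or J+V mouse 33 (0.0677) or 34 (0.0617). SPINT1, a Kunitz-type inhibitor, was lower by the rule (-0.44, adjusted p = 0.0475), but 22 of 37 other settings lost the call, among them those without V tumor 19L or 19R, J tumor 26L or 29L, control tumor 2R, 5L or 5R, or J+V tumor 33L or 34L (adjusted p up to 0.274 over all settings). BSG, an inducer of MMP production, had a log2 difference of 0.00 (adjusted p = 0.985), or -0.21 with a common sum per tumor. FURIN, which activates the membrane-bound MMPs, had -0.06 (adjusted p = 0.733).

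Of 11 tested AP-1 and ETS factors, the families that bind the MMP1 promoter, 7 fell and 1 rose in J+V against control. Of all genes tested, 20.5% were called lower and 16.6% higher. The median of the 11 factors was -0.58. FOSL1, the FOS family member most tied to MAPK signaling, stood at 34.9, 59.5, 39.4 and 31.8 FPKM in control tumors and 8.01, 7.22, 19.4 and 13.1 FPKM in J+V tumors (log2 fold change -1.82, adjusted p = 0.000299). FOSL1 was at 37.35 to 47.0 FPKM in J tumors and 16.6 to 35.3 FPKM in V tumors. JUN, its partner, fell by 0.70 (adjusted p = 0.00201), ETS1 fell by 0.72 (adjusted p = 0.00147) and ETS2 fell by 1.26 (adjusted p = 0.00546, and 0.0552 without control tumor 5L). With a common sum per tumor 8 of the 11 were called lower and 0 higher.

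The ADAM and ADAMTS families, metalloproteinases that shed membrane proteins or cut proteoglycans, moved in both directions. Of 14 tested, 5 fell and 4 rose, where 20.5% and 16.6% of all genes did, and the median of the 14 was -0.01. The genes called lower numbered 2 without control tumor 5L or J+V tumor 33L and 3 without control tumor 2R or J+V tumor 33R, with 4 called higher each time. ADAM19 fell by 0.78 (adjusted p = 0.00124) and ADAM9 fell by 0.73 (adjusted p = 0.00132). ADAMTS9 rose by 1.32 (adjusted p = 0.000779) and ADAMTS20 rose by 0.92 (adjusted p = 9.48e-05). Both were low. ADAMTS9 was at 0.743 to 2.36 FPKM in control and 2.74 to 4.67 FPKM in J+V tumors. ADAMTS20 was at 0.762 to 1.185 FPKM in control and 2.05 to 2.62 FPKM in J+V tumors.

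**Figure D4:**
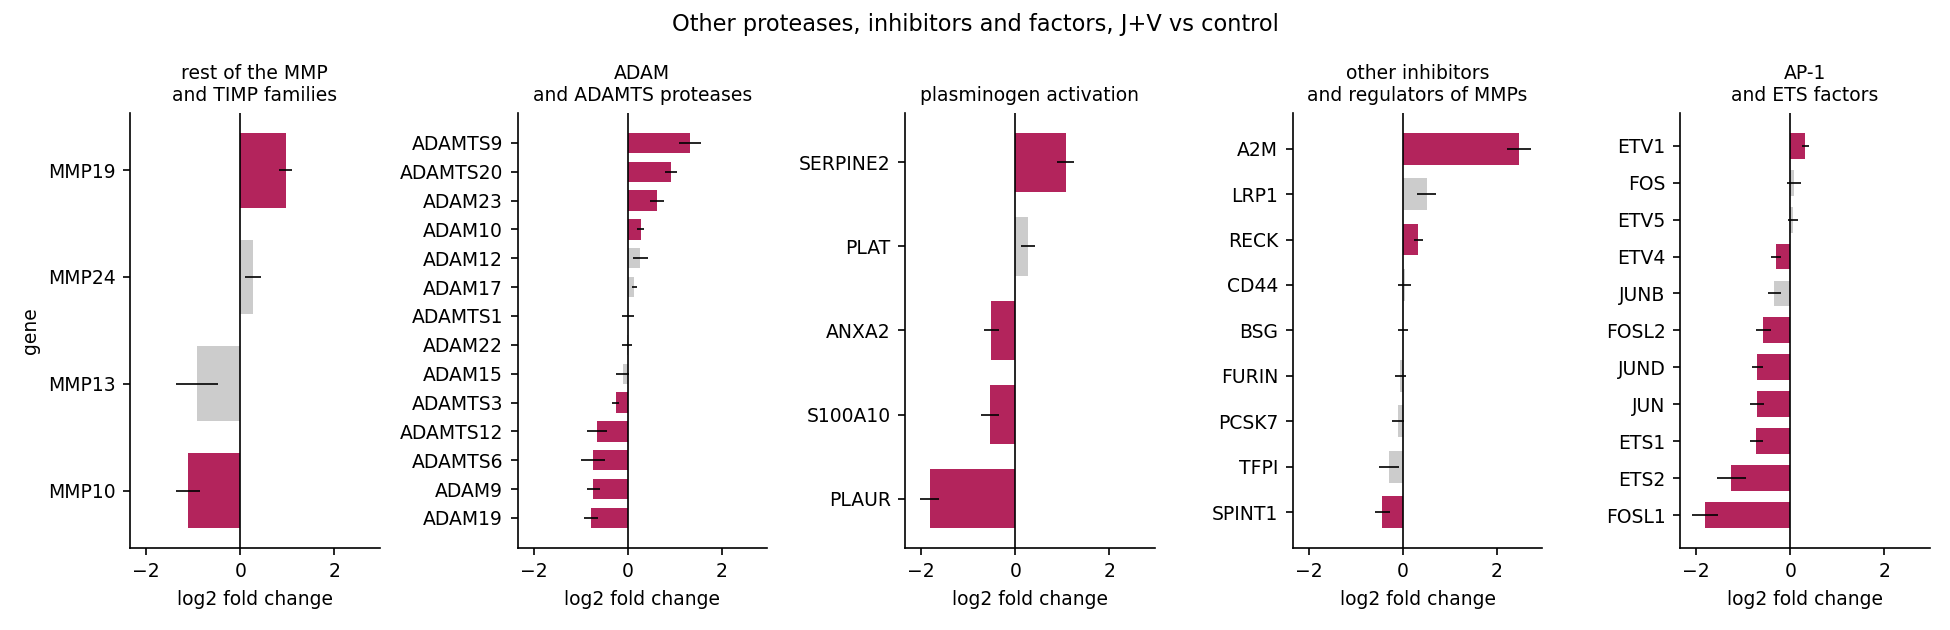
Bars are log2 fold changes of J+V against control from limma on log2(FPKM + 0.5), with standard errors, for the tested genes of 5 lists, where red bars have an adjusted p below 0.05 and grey bars do not. PLAUR (-1.82) and FOSL1 (-1.82) were the lowest and A2M (2.47) the highest.

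The genes whose levels followed those of MMP1 most closely over the 16 tumors were AEN (Pearson r = 0.954), F2RL1 (0.947) and SMAGP (0.936), out of 8736 genes with a mean FPKM of at least 5. F2RL1 encodes the protease-activated receptor PAR2. Its level was 20.4 to 33.7 FPKM in control tumors and 7.06 to 12.6 FPKM in J+V tumors. Those most like TFPI2 were SULT1B1 (0.914), HMGA2 (0.897) and PTS (0.894). SULT1B1 was at 8.36 to 15.8 FPKM in control and 1.59 to 4.50 FPKM in J+V tumors. The tumors share their groups, so these correlations include the difference of J+V from the rest, and they are given as a description.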

How the data were processed

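The authors deposited FPKM of 23260 gene symbols for 16 tumors. RiboZero removed ribosomal RNA, and ScriptSeq v2 was the library kit. The submitters' processing notes name bcl2fastq, TopHat and Cufflinks and the build hg19. The annotation was not given in the sources used here, and the sequencing depth is unknown. To each FPKM 0.5 was added and the log2 taken. All 13426 genes whose FPKM reached 1 in 4 or more tumors were fitted with limma 3.58.1 in R 4.3.3 (mean-variance trend, 4 groups in one fit, mouse as a random block with an estimated correlation of -0.067, 12 residual degrees of freedom). Adjusted p values are Benjamini-Hochberg adjusted over all genes fitted. The study's test of read counts could not be repeated on FPKM. The tests measure the spread between 4 tumors from 2 mice a group. The fit was tried on simulated data in which the tumors of a mouse were independent, so that trial cannot judge how mice were handled.

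The 10 genes and the other lists were chosen with earlier results of these data known. From each other list at most the 4 called genes with the largest change in J+V against control are named, and PLAU, PLAUR, RECK, BSG, FURIN, FOSL1 and A2M in any case. LUM, DCN, PDGFRB and ACTA2 were named after their values were seen. 1 gene of the plasminogen activation list is not reported here. The alternatives were pseudocounts of 0.1 and 1, no filter or one of a mean FPKM of 5, a common sum per tumor with and without small RNAs, upper quartile or quantile scaling, no mouse block, averaging the tumors of a mouse, only the compared groups, a flank term, robust moderation, the study's thresholds, and fits without a tumor or a mouse. Positions come from GENCODE v44 lifted to GRCh37. Tables and plots were made with Python 3.11.15, pandas 2.3.3, numpy 2.4.6 and matplotlib 3.10.9.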

Additional observations from a re-analysis of the deposited data

Results flagged for a closer look

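In 32 sets of 4 tumors (8 genes in 4 groups), 4 held a tumor set apart from its group by Dixon's criterion for the gap to the nearest tumor, where chance gives about 1 in 20. MMP2 in J+V tumor 34L was 35.9 FPKM, beside 14.9 to 17.7 FPKM in the other J+V tumors. TIMP3 in control tumor 5R was 99.8 FPKM, beside 55.9 to 61.7 FPKM, and MMP14 in the same tumor was 45.2 FPKM, beside 25.5 to 28.8 FPKM. These 2 tumors also had the highest fibroblast markers of their groups, whose part was not tested. TIMP2 in V tumor 16R was low at 18.7 FPKM, beside 24.1 to 25.01 FPKM in the other V tumors.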

How the results depend on the processing

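The calls of MMP1, MMP14, MMP16, TFPI2 and TIMP1 in J+V against control were made under all 38 other settings of the fit, with adjusted p up to 0.0191, 0.0214, 0.00628, 0.0283 and 0.036. By the study's thresholds 2 of the 8 genes were called in J+V against control, 2 against J and 2 against V. Of 13426 genes tested, these thresholds called 320 lower and 194 higher against control, 306 and 57 against J, and 122 and 53 against V. With the tumors of a mouse averaged 1 of the 8 genes was called against V. Without tumors 5R and 34L (chosen after seeing the data) the numbers called were 1 in J against control, 8 in J+V against J, 7 against V and 2 for the departure from additivity. Shares of all genes called were recorded for the main fit alone, so the counts under other fits have none beside them. Leaving out 1 tumor or 1 mouse at a time gave 5 to 6 calls against control, 3 to 8 against J, 1 to 6 against V, 0 to 2 for the departure from additivity, and 0 for J, V and J against V. The labels give each tumor's mouse and flank but no replicate number, and no mouse number recurs between groups. No paired analysis was possible because tumors of different groups come from different mice.

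No value was called where its sign changed. With a common sum per tumor TIMP3 was -0.18 in J+V against control and -0.14 against V, TFPI2 was -0.085 in J and -0.030 in V, and MMP14 (-0.049), MMP2 (-0.039) and TIMP3 (-0.044) changed sign in V, as BSG did in J+V (-0.21). Without tumors 5R and 34L, TIMP3 was -0.086 in J+V against control and -0.29 against V, FURIN was 0.10 in J+V against control, and MMP1 (0.10) and MMP14 (0.12) changed sign in J. Leaving out 1 tumor or mouse gave, in J against control, -1.004 to 0.43 for MMP1, -0.22 to 0.12 for MMP14 and -0.19 to 0.31 for TFPI2. In V against control it gave -1.38 to 0.047 for MMP1, -0.16 to 0.19 for MMP14, -0.21 to 0.23 for MMP2, -0.23 to 0.27 for TFPI2 and -0.22 to 0.24 for TIMP3. In J+V against control it gave -0.24 to 0.085 for TIMP2, -0.40 to 0.47 for TIMP3, -0.12 to 0.13 for BSG and -0.21 to 0.092 for FURIN. For TIMP3 it gave -0.78 to 0.086 against J, -0.40 to 0.46 against V and -0.78 to 0.079 for the departure from additivity, and for TIMP1 -0.044 to 0.27 for the latter.

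In the other lists, the study's thresholds left 1 call in the rest of the MMP and TIMP families, 1 in the ADAM and ADAMTS genes, 2 in plasminogen activation, 1 in the other regulators and 2 in the AP-1 and ETS factors. A mean FPKM of at least 5 left 3 ADAM and ADAMTS genes and 1 other regulator, since fewer genes were tested. The ADAM and ADAMTS genes called lower numbered 2 with each mouse's tumors averaged, with only the groups compared and without mouse 33. Plasminogen activation had 2 calls with quantile normalization, and a fit of only the compared groups left 1 other regulator. Leaving out 1 tumor or mouse gave 2 to 4, 6 to 9, 2 to 4, 1 to 4 and 6 to 9 calls in the 5 lists. The cause was not tested. Depth is unknown and FPKM near 1 are the least certain. This holds for MMP10, MMP19, RECK and SPINT1, and for ADAMTS9 and ADAMTS20 in control tumors. The block correlation is shared by all genes, and p can be too low where the mice of a group differ, as for MMP1.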

Other observations

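MMP13, a collagenase, fell outside the rule for naming genes and was chosen after its values were seen. It stood at 2.14 and 2.08 FPKM in control mouse 2 and 6.47 and 9.75 FPKM in control mouse 5, and at 1.09 and 0.950 FPKM in J+V mouse 33 and 3.59 and 3.55 FPKM in J+V mouse 34. MMP1 had its lower levels in mice 2 and 33 as well. The log2 difference of MMP13 between J+V and control tumors was -0.92 (adjusted p = 0.125 from limma), and the difference between the mice of a group was not tested.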
